A study of Mus musculus with 6 samples.

Results

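Genes of ion transport in the newborn mouse lens were compared between wild type and Pax6 heterozygous animals. The set held 7 genes: the sodium pump beta subunits Atp1b1, Atp1b2 and Atp1b3, the potassium channel Kcnj10, the chloride channel Ano1 (older symbol Tmem16a), the cotransporter Slc12a2 and the chloride transporter Clcn3. All 17 probe sets annotated to these genes were taken, of 22626 probe sets tested in all, and the 7 genes stood among 12393 genes measured. Lens RNA was hybridized from 3 wild type mice of the NMRI background and from 3 mice carrying Pax6 lacZ/+, in which lacZ replaces a copy of Pax6 in every cell. Each sample was the total RNA of the 2 lenses of a single mouse at postnatal day 1, amplified from 50 ng before hybridization to Affymetrix arrays. Signals are given as the linear intensities deposited by the authors after robust multichip average (RMA) normalization, which yields 1 value for every probe set and array. At its brightest probe set Pax6, the targeted gene, had signals of 1169, 1760 and 963.4 in the wild type. Heterozygous lenses gave 941.7, 1170 and 881.9, lower in each of the 3 pairs of mice with the same replicate number. The groups overlapped, and 17.2% of all probe sets were lower in each pair. By limma the log2 difference (heterozygous minus wild type) was −0.34 ± 0.24 (SE), with an unadjusted p of 0.21. Further Pax6 probe sets, with log2 differences of −0.69 and −0.48, were also lower in each pair. The last of them was dim (26.01 against 19.22), and a still dimmer one differed by −0.11. Another Pax6 probe set was higher in each pair (51.16, 54.82 and 75.17 against 63.2, 57.45 and 85.6). No Pax6 probe set had an unadjusted limma p under 0.05.

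The lens has no blood vessels, and ions and water move through it along paths that are driven by the sodium pump, Na,K-ATPase, in its epithelium and outer fibers. The pump consists of a catalytic alpha subunit, which splits ATP, and a glycosylated beta subunit, which brings alpha to the cell membrane. Potassium channels such as Kcnj10 return potassium across the membrane, Slc12a2 carries sodium, potassium and chloride into the cell together, and chloride channels let chloride out again. Loss of this balance swells lens cells and clouds the lens. The alpha subunits were not analysed here.

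Promoter sequences from RefSeq (build GRCm38.p6) were matched by symbol for 5 of the 7 genes, in 7 windows that each hold the 250 bases before a transcript start. The windows of Ano1, Kcnj10 and Atp1b1 are printed because the first 2 genes were measured higher in heterozygous lenses and the last was the sodium pump subunit measured lower there. Capitals mark the GC box GGGCGG and the CCAAT box CCAAT, both searched on both strands. The Ano1 window, at chr7:144738574-144738823 on the minus strand, precedes a transcript that starts 13453 bases inside the outermost annotated start of the gene. The Kcnj10 window lies at chr1:172340960-172341209 on the plus strand and the Atp1b1 window at chr1:164458356-164458605 on the minus strand.
Ano1 promoter window: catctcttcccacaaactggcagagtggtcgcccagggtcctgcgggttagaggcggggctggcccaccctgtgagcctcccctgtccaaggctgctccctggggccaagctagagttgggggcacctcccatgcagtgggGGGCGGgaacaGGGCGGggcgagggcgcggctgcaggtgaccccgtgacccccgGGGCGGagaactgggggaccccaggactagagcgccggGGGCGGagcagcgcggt
Kcnj10 promoter window: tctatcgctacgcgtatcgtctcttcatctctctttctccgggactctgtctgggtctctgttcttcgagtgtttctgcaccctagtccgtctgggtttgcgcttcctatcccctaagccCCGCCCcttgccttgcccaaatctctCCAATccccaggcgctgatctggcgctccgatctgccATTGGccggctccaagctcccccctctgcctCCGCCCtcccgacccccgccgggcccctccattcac
Atp1b1 promoter window: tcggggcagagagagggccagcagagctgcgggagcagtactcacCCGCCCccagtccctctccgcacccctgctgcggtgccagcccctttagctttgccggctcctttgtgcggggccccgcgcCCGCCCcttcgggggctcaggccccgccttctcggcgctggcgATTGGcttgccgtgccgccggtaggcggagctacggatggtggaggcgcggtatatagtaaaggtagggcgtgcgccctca
The Ano1 window held 4 GC boxes and no CCAAT box at 72.0% G and C. For Kcnj10 the count was 2 GC boxes and 2 CCAAT boxes at 62.0% G and C, and for Atp1b1 it was 2 GC boxes and 1 CCAAT box at 70.4%. Over all 32851 promoter windows of the same length, 32.7% held a GC box and 33.8% a CCAAT box, and the median content of G and C was 52.4%. The letters TATAAA and TTCACG, the last of them part of the optimal site for the Pax6 paired domain, were in 0 of the 7 windows on either strand. Among all windows 12.4% held TATAAA and 3.9% held TTCACG, and a match or its absence describes these letters only.

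Ano1, Kcnj10 and the brightest probe set of Atp1b2 were higher in all 3 Pax6 heterozygous lenses than in any wild type lens, whereas Atp1b1, Slc12a2 and Clcn3 had lower means at their bright probe sets and Atp1b3 hardly differed. By limma, with Benjamini-Hochberg adjustment over all probe sets, 0 of the 17 had an adjusted p under 0.05 (each was 1.00), and 0% of all probe sets passed. At an unadjusted p under 0.05, 3 of the 17 were higher and 0 were lower, where 0.977% of all probe sets were higher and 1.01% lower (1.99% together). The genotypes did not overlap at 3 probe sets, all of them higher in the heterozygotes, beside 2.65% higher and 3.53% lower (6.18% together) among all probe sets. These 3 genes are also in the list of differing genes that the study drew from the same arrays, so their direction is not independent evidence. The median difference over the 17 probe sets was −0.11 in log2 units, counted as heterozygous minus wild type, beside −0.01 over all probe sets.

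**Figure D1:**
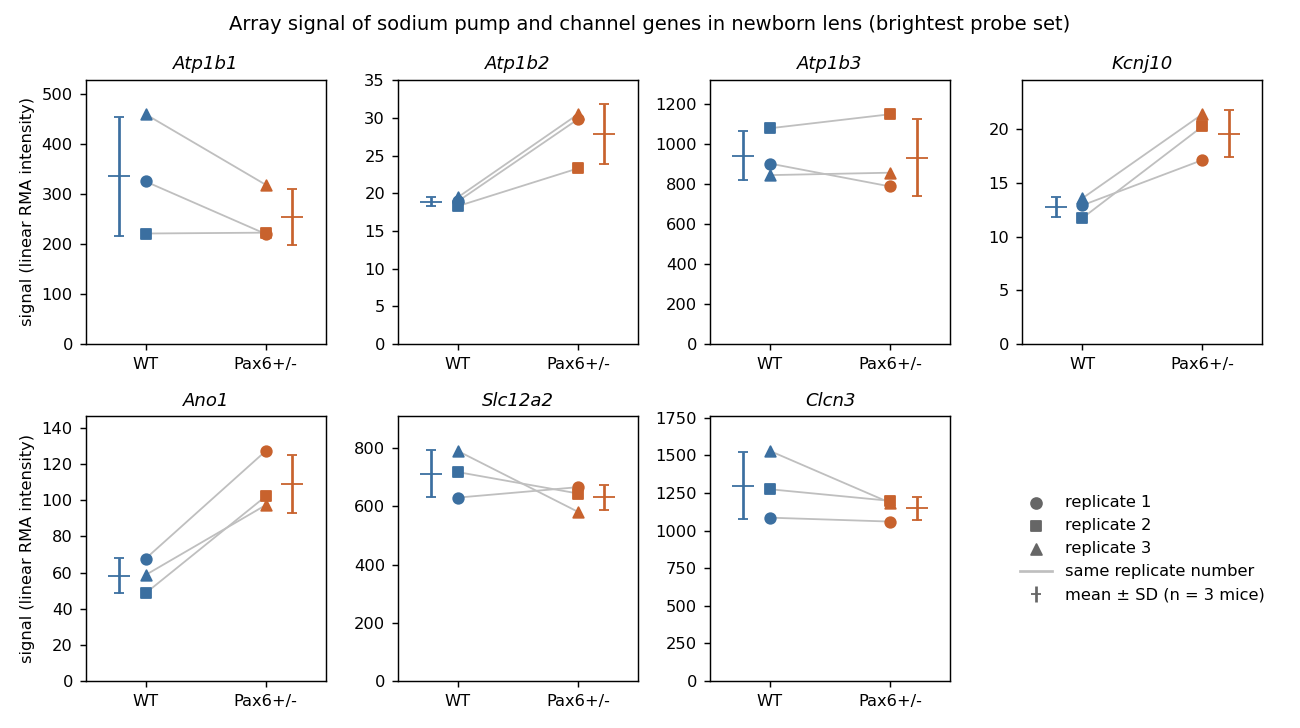
Linear RMA signal (y axis, from 0) of each of the 7 genes at its brightest probe set, in wild type (WT) and Pax6+/- lenses; marker shapes give the replicate number, gray lines join mice with the same number, and bars give the mean ± SD of 3 mice. For Ano1 the heterozygous lenses lie between 97.41 and 127.4, above the highest wild type lens at 67.72, and Kcnj10 and Atp1b2 also show no overlap.

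Ano1, which encodes the calcium-activated chloride channel anoctamin 1, showed the largest difference of the 7 genes. In wild type lenses its signal was 67.72, 48.59 and 58.68, and in heterozygous lenses 127.4, 102.3 and 97.41. Every heterozygous lens lay above every wild type lens, with a clear gap between the groups. The mean was 58.33 ± 9.57 (SD, n = 3) in the wild type and 109.0 ± 16.1 (SD, n = 3) in the heterozygotes, which is 86.9% higher. By limma the log2 difference was 0.91 ± 0.18 (SE), with a 95% interval from 0.48 to 1.33. Its unadjusted p ranked 15 among the 22626 probe sets. The exact two-sided permutation test gave p = 0.1 for this gene, and likewise for Kcnj10 and the brightest Atp1b2 probe set, the smallest that 3 against 3 allows, so no single gene could reach 0.05 by that test. Between mice of the same replicate number the log2 differences were 0.91, 1.07 and 0.73, all in the same direction.

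Kcnj10 encodes the inward rectifier potassium channel Kir4.1, known from glial cells, where it takes up potassium around neurons. Its single probe set was dim, with signals of 12.9, 11.7 and 13.54 in the wild type and 17.11, 20.23 and 21.37 in heterozygous lenses. The groups did not overlap, and replicate 1 was the lowest of the heterozygotes. Means were 12.71 ± 0.931 and 19.57 ± 2.20 (SD, n = 3 each), a log2 difference of 0.62 ± 0.13 (SE, limma; 95% interval 0.29 to 0.94), and its p ranked 26. As a guide to background, 33 probe sets of olfactory receptor genes, not expected in lens, had array medians of 9.65 to 11.0 and a highest mean of 13.8. The wild type signals of Kcnj10 therefore lay within the range of these probe sets and the heterozygous signals above it. Ratios of such dim signals are uncertain, and the background they contain can pull a ratio toward 1.

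The beta subunits of the sodium pump differed from each other. Atp1b1 encodes the beta 1 subunit, the most widespread partner of the pump in the body. Its brightest probe set gave 324.7, 220.9 and 458.9 in wild type lenses and 219.9, 222.6 and 318.1 in heterozygous lenses, so the groups overlapped and replicate 3 was the highest of each genotype. The second probe set gave 267.8, 216.7 and 410.2 against 207.8, 188.0 and 314.9, lower in heterozygotes in each pair of the same number. Across the 6 arrays both probe sets followed each other, with a Pearson correlation of 0.966. The brightest had means of 334.8 ± 119.3 and 253.5 ± 55.95 (SD, n = 3 each) and a log2 difference of −0.36 ± 0.29 (SE), with a limma 95% interval from −1.07 to 0.35 and an exact permutation p of 0.3. The second had a log2 difference of −0.32 ± 0.30 (SE) and an exact permutation p of 0.5. The other 3 Atp1b1 probe sets were dim, with median signals of 13.1 to 14.7 and log2 differences of −0.16 to 0.10.

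The spread of Atp1b1 was mostly shared by mice of the same replicate number, and the test of this gene depended on whether the fit took that number into account. Blocking by replicate number left the difference of the brightest at −0.36 and reduced its SE to 0.143, and the SE of the second to 0.0998. Their limma adjusted p was then 0.544 and 0.465. Under the block 5 of the 17 probe sets, 3 higher and 2 lower, had an unadjusted p under 0.05, the lower ones being these of Atp1b1, beside 4.43% higher and 4.59% lower (9.03% together) among all probe sets, and 0 of the 17 passed the adjustment, beside 0.00884% of all. Pair by pair the brightest probe set differed by −0.56, 0.01 and −0.53 on the log2 scale, so that in replicate 2 the genotypes were alike. Without wild type replicate 3 the difference was −0.10 and without wild type replicate 2 it was −0.63, the last with an unadjusted limma p under 0.05.

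Atp1b2 encodes the beta 2 subunit, which in the brain is also known as an adhesion molecule of glia. At its brightest probe set, itself dim, the wild type lenses had 18.93, 18.3 and 19.47 and the heterozygous lenses 29.83, 23.31 and 30.49. The wild type values were nearly equal, and all heterozygous values lay above them. The mean was 18.9 ± 0.586 in the wild type and 27.88 ± 3.97 in the heterozygotes (SD, n = 3 each), a log2 difference of 0.55 ± 0.14 (SE; 95% interval 0.21 to 0.89, limma), and its p ranked 54. The other probe set of Atp1b2 went the opposite way, with 10.23, 13.85 and 11.7 against 9.843, 12.14 and 10.25 and a log2 difference of −0.15 ± 0.16 (SE). Its median of 10.98 was within the range of the olfactory receptor probe sets. Because the 2 probe sets disagreed, their mean difference was only 0.20.

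Atp1b3, the gene of the beta 3 subunit, was bright and nearly level between genotypes. Signals were 901.0, 1077 and 843.3 in the wild type and 786.8, 1147 and 855.4 in heterozygotes, and replicate 2 was the highest in both. Means of 940.4 ± 121.7 and 929.8 ± 191.4 (SD, n = 3 each) gave a log2 difference of −0.03 ± 0.18 (SE; exact permutation p = 0.9). Its 95% interval ran from −0.47 to 0.41 and so still includes a moderate change in either direction.

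**Figure D2:**
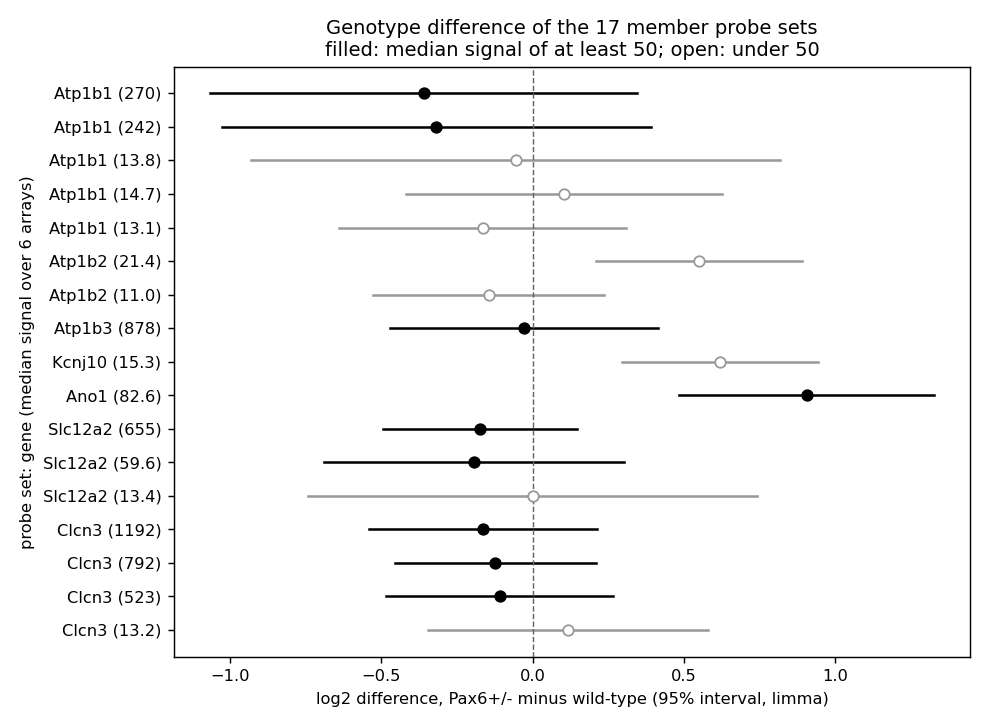
Log2 difference (x axis, Pax6+/- minus wild type) of each of the 17 probe sets with its 95% limma interval; the y axis names the gene with the median signal over the 6 arrays, and filled points have a median of at least 50. The intervals of Ano1, Kcnj10 and the brightest Atp1b2 probe set lie above 0 and all the others cross it.

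Slc12a2 encodes NKCC1, the cotransporter that brings sodium, potassium and chloride into cells, and its bright probe set showed a small difference with overlap. It gave 630.4, 718.2 and 790.9 in wild type and 666.3, 644.5 and 581.5 in heterozygous lenses. Only replicate 3 stood clearly apart between genotypes, with a pair difference of −0.44 against 0.08 and −0.16 for the others. Means were 713.2 ± 80.38 and 630.8 ± 44.03 (SD, n = 3 each) and the log2 difference was −0.17 ± 0.13 (SE; 95% interval −0.49 to 0.15; exact permutation p = 0.3). The second probe set of Slc12a2, with a median of 59.58, differed by −0.19 ± 0.21 (SE) and the last, with a median of 13.41, by 0.00.

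Clcn3 encodes ClC-3, a chloride and proton exchanger of endosomes and vesicles. Its 3 bright probe sets all had a lower mean in heterozygotes, by amounts within the spread between mice. The brightest gave 1086, 1275 and 1530 in the wild type and 1060, 1198 and 1185 in heterozygotes, where replicate 3 of the wild type was the highest and the other values overlapped. Its means were 1297 ± 223.1 and 1148 ± 76.13 (SD, n = 3 each), with a log2 difference of −0.16 ± 0.16 (SE; 95% interval −0.54 to 0.21; exact permutation p = 0.4). The next in brightness differed by −0.12 ± 0.14 and the least bright of the 3 by −0.11 ± 0.16 (SE). Their correlations over the 6 arrays ranged from 0.262 to 0.771, lower than for the Atp1b1 pair. The fourth Clcn3 probe set was dim, with a median of 13.18 and a log2 difference of 0.12.

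**Figure D3:**
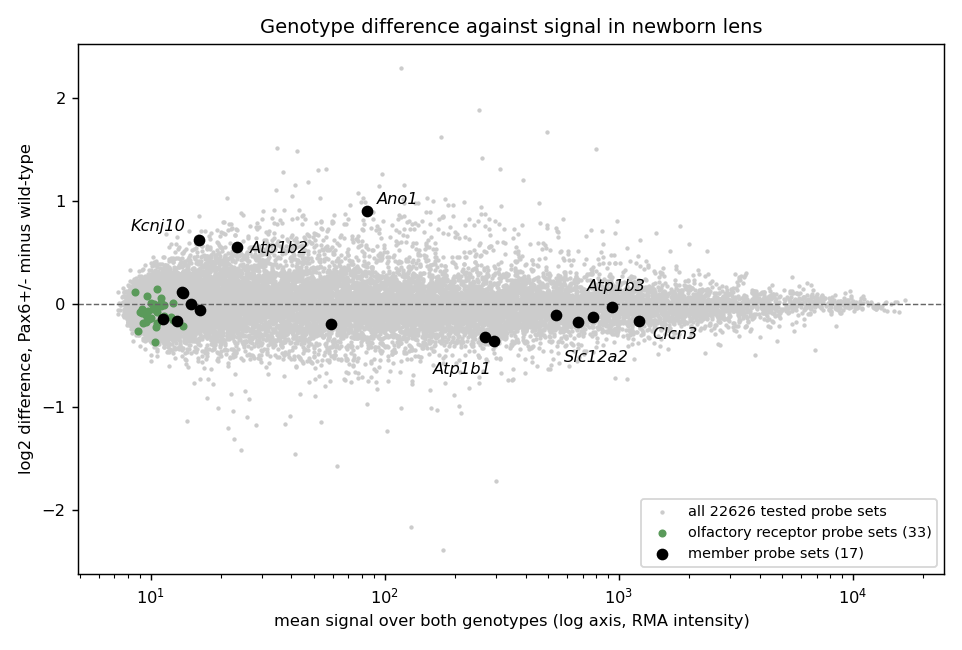
Log2 difference (y axis, Pax6+/- minus wild type) against the mean signal of both genotypes (x axis, log scale) for all 22626 probe sets in gray, 33 olfactory receptor probe sets in green and the 17 probe sets of the 7 genes in black, with names at the brightest of each gene. Kcnj10 and Atp1b2 lie close to the olfactory receptor probe sets in signal, and Ano1 is the only black point above 0 among those with a median signal of at least 50.

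The probe sets of the 7 genes were then taken by signal. Of the 9 with a median signal of at least 50, only Ano1 was above 0 and 8 were below, with a median log2 difference of −0.16. Among the 8 with a median under 50, 5 were above 0 and 3 below, beside 46.5% above 0 over all probe sets. Across same-numbered pairs, 3 of the 17 were higher and 4 were lower in all 3 pairs, while among all probe sets 13.8% were higher and 17.2% lower in this way. The 4 lower ones were 2 of Atp1b1, 1 of Clcn3 and the dimmer of Atp1b2.

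The 6 arrays also show how far the genes moved together, as a description over 6 points that share genotype and replicate number. Ano1, Kcnj10 and Atp1b2 correlated with each other at 0.836 to 0.884, which their common difference between genotypes enters. Slc12a2 and Clcn3 correlated at 0.75 and Atp1b1 and Clcn3 at 0.60, and each of these 3 genes was highest in wild type replicate 3. The correlation of Atp1b1 with Atp1b3 was negative, at −0.475, and was not tested. Within genotypes, the deviations of Atp1b3 matched by number: replicate 2 lay 0.20 above the mean in the wild type and 0.32 above it in heterozygotes, on the log2 scale. For Slc12a2, replicates 1 and 3 deviated in opposite directions in the 2 genotypes.

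**Figure D4:**
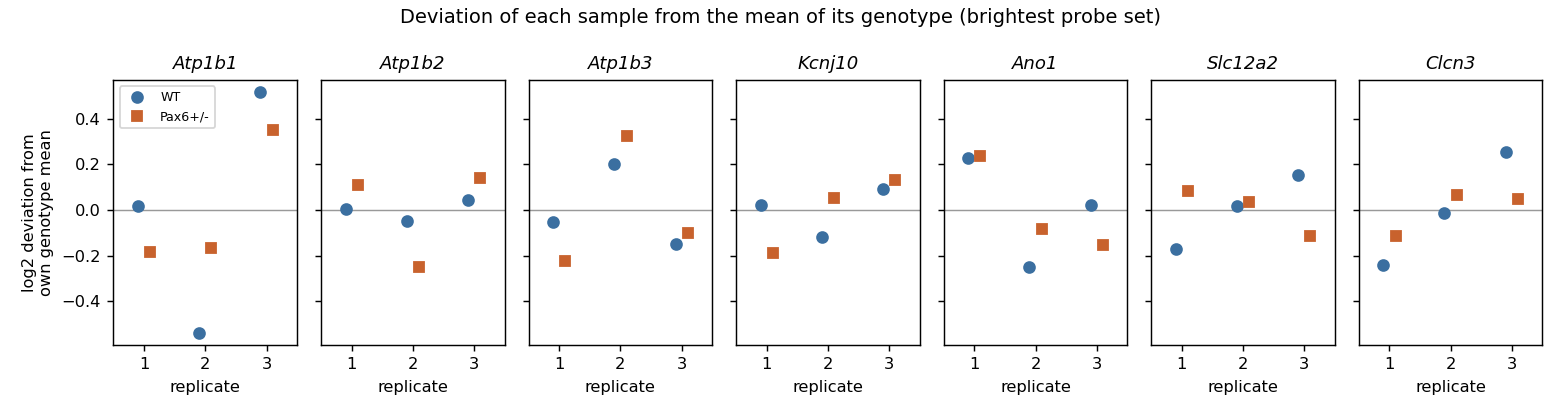
Log2 deviation of each lens sample from the mean of its own genotype (y axis) by replicate number (x axis), at the brightest probe set of each gene; circles are wild type (WT) and squares Pax6+/- lenses. Atp1b1 is above its mean in replicate 3 and Atp1b3 in replicate 2 in both genotypes, while replicates 1 and 3 of Slc12a2 lie on opposite sides of 0.

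Among the probe sets of other genes with a median signal of at least 100, those most like each member over the 6 arrays were found by Pearson correlation. Ano1 was nearest to Olfm3 (0.993), which encodes a secreted olfactomedin, and to Ppp1cc (0.968). Kcnj10 was nearest to the nuclear receptor gene Nr2f1 (0.966) and to Marcks (0.951). Atp1b2 was nearest to Erf (0.986) and Hadhb (0.984), and Slc12a2 to Bbip1 (0.974) and Leprotl1 (0.971). For Atp1b1 these were Poldip2 (0.985) and Rdx (0.984), for Atp1b3 Txn2 (0.993) and Ltv1 (0.99) and for Clcn3 Map1b (0.989) and Gfm1 (0.978). With only 6 points such values are common, and a member's difference between genotypes enters them. Of the 6384 to 6387 probe sets searched for each member, 455 reached 0.9 with Atp1b3, 161 with Atp1b1 and 104 with Clcn3. The counts were 25 with Ano1, 14 with Kcnj10, 12 with Atp1b2 and 9 with Slc12a2.

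Related genes of ion transport were described in 8 lists with 99 genes, of which 63 had a probe set of their own. At the brightest probe set of each, 43 were above 0 and 20 below, where 5823 of all 12393 genes were above 0. The median log2 difference was 0.05, beside −0.01 over all genes. In every list but that of volume-regulated and other chloride channels, most genes had a median signal under 50. Many of these directions therefore rest on dim signals. By limma 0 of the 63 passed the adjustment, and 2 were higher and 0 lower at an unadjusted p under 0.05, where 1.12% of all genes were higher and 1.12% lower. Blocked by replicate number, the counts were 6 and 2, where all genes gave 5.31% and 4.52%. The genotypes did not overlap in 5 genes that were higher (Fxyd6, Stk39, Slc12a1, Wnk4 and Kcnj5) and in 1 that was lower (Kcnj2, at background), beside 2.57% and 3.49% of all genes.

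Of the other sodium pump subunits, 8 of 12 were measured, 5 above 0 and 3 below. Fxyd6, a gene of the FXYD family of small proteins that tune the pump, gave 62.4, 48.4 and 57.9 in the wild type and 122, 74.8 and 70.8 in heterozygotes. These values did not overlap, though 2 of the heterozygotes stood close to the wild type (log2 difference 0.63, limma adjusted p = 1.00). Fxyd5 had a nominally larger difference of 0.83 with strong spread, from 21.4 to 120 in the wild type and 41.7 to 277 in heterozygotes, and is named here after its values were seen. Atp1b4, whose product in placental mammals is a muscle protein that is no longer a pump subunit, had dim means of 16.9 and 11.2. The 7 measured genes of related P-type pumps had a median of 0.00, and those with the smallest p, Atp4a and Atp2a1, were dim with log2 differences of −0.34 and −0.45.

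Among potassium channels, 7 of 12 other inward rectifiers and 6 of 8 tandem-pore channels were above 0, with medians of 0.10 and 0.08. Of these, 0 of the 12 and 1 of the 8 had a median signal of at least 50. Kcnk1, which encodes the tandem-pore channel TWIK-1, gave 129, 68.9 and 111 in the wild type and 189, 122 and 210 in heterozygous lenses. Only heterozygous replicate 2 fell within the wild type range, and each pair was higher (log2 difference 0.76, limma adjusted p = 1.00). The inward rectifiers with the smallest p were Kcnj14, at 37.5 ± 5.59 against 46.7 ± 9.3 (SD, n = 3 each), and Kcnj5, at the background level. Kcnk3 was also at background.

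Chloride channels and cotransporters gave few differences beyond the spread. Best2 (0.26) and Ano10 (0.06) were the only 2 of 12 other anoctamins and bestrophins measured, and 5 of 7 other CLC genes were above 0 with a median of 0.04, led by p by the dim Bsnd and Clcn2. In the group of volume-regulated and other chloride channels, 6 of 7 genes were above 0 with a median of 0.11. Its smallest p belonged to Clic4, at 235 ± 98.4 against 366 ± 189 (SD, n = 3 each), and to Lrrc8a, an essential subunit of the volume-regulated anion channel, at 1140 ± 190 against 1340 ± 283. For the cotransporters and their kinases, 7 of 12 were above 0. Stk39 encodes SPAK, the kinase that activates Slc12a2, and gave 1730, 1890 and 2140 in the wild type and 2150, 2160 and 2460 in heterozygotes. The groups were separated by a margin that is narrow beside their spread (log2 difference 0.24), and the dim Slc12a1 (9.02 against 10.5) and Wnk4, a kinase upstream of Stk39 (51.7 against 56.3), also showed no overlap.

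**Figure D5:**
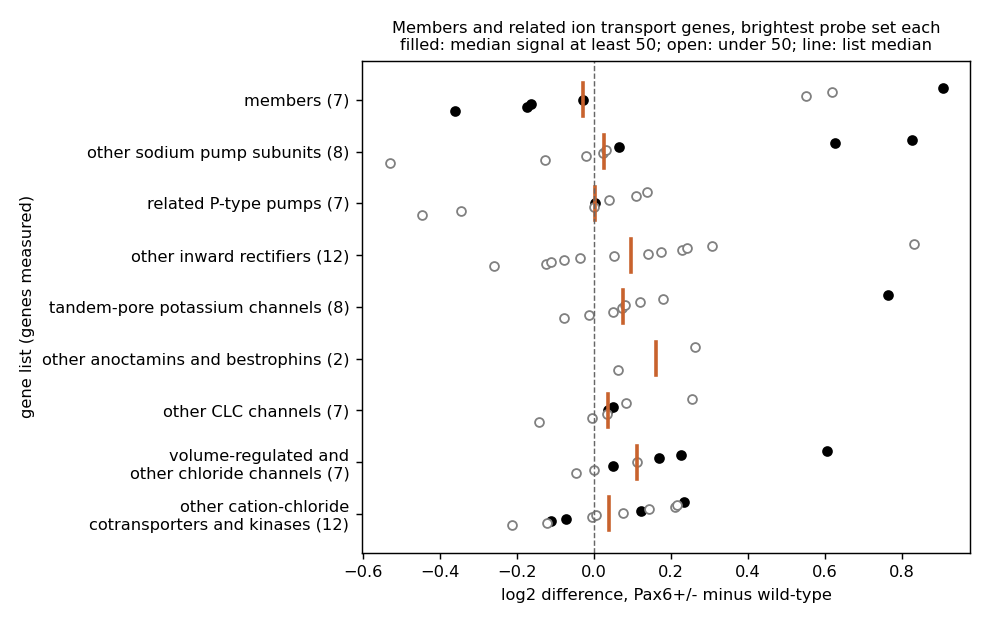
Log2 difference (x axis, Pax6+/- minus wild type) of the 7 genes and of related genes in 8 lists (y axis, with the number measured), each gene at its brightest probe set and spread vertically for legibility; filled points have a median signal of at least 50 and orange lines give list medians. The lists have medians from 0.00 to 0.16, and Ano1 at 0.91 lies farthest right.

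The samples were lens by their markers: the fiber crystallin Cryba1 had means of 16500 and 16900, and the sum over 9 measured fiber markers was 90400 to 107000 in the wild type and 88700 to 104000 in heterozygotes. The sums over 6 epithelial markers, 6610 to 8930 and 6880 to 8370, were mostly the signal of Gja1 (6220 ± 1060 and 6370 ± 769; SD, n = 3 each). Taken singly, 4 of the 6 epithelial markers were below 0, where 6570 of all 12393 genes were below 0. Of these 4, Foxe3 (12.7 against 11.6) and Pitx3 (23.2 against 22.9) were dim and differed little. The 2 above 0 were Gja1 and Six3 (402 against 421), the last higher in each of the 3 pairs. Pdgfra was 618 ± 68.1 in the wild type and 409 ± 20.1 in heterozygotes (SD, n = 3 each) without overlap, and Cdh1, at 638 and 460, was lower in each of the 3 same-numbered pairs. Among all genes 3.49% were lower without overlap, and 2196 of 12393 were lower in each pair. Pdgfra and Cdh1 moved in the direction of Atp1b1, and the part of epithelial cells in the Atp1b1 difference was not tested.

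Means of markers of other cell types also differed between genotypes, in some types in both directions, and 0 of these markers passed the limma adjustment. For retinal neurons, 10 of 11 markers were above 0 and the sums did not overlap, at 834 to 987 in the wild type and 1120 to 1660 in heterozygotes. Taken singly, 3 of the 11 did not overlap: Stmn3, the brightest (229 ± 56.4 against 386 ± 41.1; SD, n = 3 each), and the dim Rcvrn were higher, and Elavl4, at 71.8 against 50.7, was lower. Among all genes 2.57% were higher and 3.49% lower without overlap. Otx2 had the largest log2 difference of the 11 (0.94), at 194, 156 and 156 against 442, 411 and 185, with overlap. Together with Stmn3 it made up much of the difference in the sums. For glia, in which Kcnj10 and Atp1b2 are known, the sums overlapped at 4620 to 5880 and 5300 to 6040, with 2 of 6 markers above 0. These were the brightest, Glul (4830 ± 572 against 5300 ± 391; SD, n = 3 each), higher in each of the 3 pairs, and Slc1a3 (262 against 296). The sums were mostly the signal of Glul, so their overlap says little about the other glial markers. The other 4, Aqp4 (77.7 against 65.0), Rlbp1 (23.2 against 19.2), S100b (18.7 against 16.4) and Gfap (14.3 against 13.0), were below 0, Aqp4 without overlap. All 9 endothelial markers were above 0, and their sum was higher in every same-numbered pair, at 1060, 752 and 650 in the wild type and 1740, 994 and 858 in heterozygotes. Their brightest, Tek, was 498 ± 113 against 716 ± 183 (SD, n = 3 each). With the replicate block 4 of the 9 had an unadjusted limma p under 0.05, and 1 without it, all higher. Among all genes 5.31% were higher in this way with the block and 1.12% without it. For macrophages 9 of 10 were above 0, and the sum was higher in 2 of 3 pairs, with a range of 445 to 1380 against 271 to 1570 and C1qb the brightest (264 ± 229 against 324 ± 234; SD, n = 3 each). The part of these cell types in the differences of Ano1, Kcnj10 and Atp1b2 was not tested.

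Markers of ciliary body and iris (4 measured, 4 above 0), pigment cells (7, 3 above 0), mesenchyme (8, 2 above 0), red blood cells (3, 0 above 0) and cornea (5, 2 above 0) were also examined, and no marker was listed at 0. In bulk lens RNA, a change in the number of cells of a type and a change of RNA per cell cannot be told apart. The reference genes B2m (972 against 1230), Hprt (598 against 629) and Sdha (891 against 921) each had a limma adjusted p of 1.00.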

How the data were processed

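Lens RNA of 3 wild type and 3 Pax6 heterozygous mice was hybridized to Affymetrix arrays after amplification of 50 ng with the NuGEN Ovation system. The methods name an array of a larger design than the deposited table has the size of. The authors normalized the arrays by RMA and deposited linear signal intensities per probe set. The RMA version is not given in the sources used here. Arrays give no counts, and their number limits the precision.

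The deposited intensities were transformed to log2 with no pseudocount or further normalization. The 64 control probe sets were left out. Genotypes were compared in R 4.3.3 by lmFit and eBayes of limma 3.58.1, and p values were adjusted by Benjamini-Hochberg over 22626 probe sets. Figures were drawn with matplotlib 3.10.9. Probe sets were named by the platform annotation, with 20351 of 20380 single-gene probe sets matched to RefSeq by Entrez number. Since 3 mice a genotype allow no exact p under 0.1, single probe sets are given with limma intervals, adjusted p and exact permutation p. Means and SDs are on the linear scale, and n counts mice. The fit was checked on simulated data.

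Same-numbered samples deviated together, with correlations of 0.645, 0.734 and 0.604 against −0.0751 to −0.496 for different numbers, so the replicate numbers of the titles were taken to pair the samples. What mice of the same number share is not given in the sources used here. Named genes were all probe sets of the 7 genes, the 2 genes with the smallest unadjusted p in each related list, the brightest gene of the marker lists given by sums, and the 2 genes most correlated with each member; other marker genes and genes without overlap were named after their values were seen. The members and lists were chosen with earlier results of these data known. Other tests, normalizations, filters on dim probe sets, variance priors, array weights, the block and leaving out each sample were tried.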

Additional observations from a re-analysis of the deposited data

How the results depend on the processing

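Under 16 alternatives to the setting reported, 163 values of the 11 probe sets examined were recomputed, of which 158 kept their direction and 5 were reversed. Atp1b3 ranged from −0.189 to 0.0829 with a sample left out and turned to 0.0829 without heterozygous replicate 1, to 0.0226 without heterozygous replicate 3 and to 0.0738 without wild type replicate 2, the Clcn3 probe set of rank 3 in signal ranged from −0.211 to 0.00245 (without wild type replicate 3), and the second Slc12a2 probe set from −0.318 to 0.00984 (without heterozygous replicate 3). Ano1 ranged from 0.78 to 1.02, Kcnj10 from 0.55 to 0.71 and the brightest Atp1b2 probe set from 0.48 to 0.67 when a sample was left out and kept an unadjusted limma p under 0.05 each time. The mean of both Atp1b2 probe sets was 0.20 instead of 0.55. Kcnj10 and Atp1b2 fall below both signal filters and Ano1 below the higher one: of the 3 probe sets with an unadjusted p under 0.05, 1 remained at a median signal of at least 50 and 0 at 100. With the replicate block the count was 5, and with a sample left out 3 to 4. Counts without overlap ranged from 3 to 5, reaching 5 without wild type replicate 1, wild type replicate 2 or heterozygous replicate 3. With a sample left out, counts with all remaining pairs in agreement ranged from 9 to 12 instead of 7, where fewer pairs are asked to match. With all 3 pairs kept, this count was 10 under median centring and 7 under quantile normalization, so it depends on the scaling too. No member passed the adjustment in any setting. Over all probe sets, 450 had an unadjusted p under 0.05, against 2042 with the block (2 of them past the adjustment), 87 of 7013 at a median of at least 100 and 125 of 8865 at 50. For the related genes the count of 2 became 8 with the block, 1 with median centring, quantile normalization or a median of at least 100, 1 without heterozygous replicate 1 or wild type replicate 2, and 0 without wild type replicate 3. The cause of these shifts was not tested. The scalings moved the median of all probe sets by little, from −0.01 to −0.00399 with quantile normalization and to −0.04 with median centring. The wild type signals of Kcnj10 lie in the range of olfactory receptor probe sets, where a ratio is uncertain. The precision of every value is limited by 3 mice per genotype.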

Other observations

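Kcnj8, the gene of an ATP-sensitive inward rectifier found in blood vessel walls, varied more between mice than between genotypes and was looked at after its values were seen. It gave 45.2, 17.1 and 7.93 in wild type and 86.9, 26.6 and 14.9 in heterozygous lenses, the lowest in replicate 3 of each genotype. The heterozygote was higher in each of the 3 pairs of the same number, the groups overlapped, and the limma adjusted p was 0.24 with the replicate block and 1.00 without it. Pdgfrb, a gene of vessel wall cells, was taken from the mesenchyme list after its values were seen. It was also lowest in replicate 3 of both genotypes, at 45.7, 47.5 and 19.8 against 91.6, 69.6 and 28.0. No other gene of that list was lowest in replicate 3 of both genotypes, and only 2 of its 8 genes were above 0. Genes of other lists were lowest there too, among them endothelial Cldn5, Eng, Esam and Emcn, macrophage C1qc and Aif1, and Fxyd5. Endothelial Tek and Kdr were not, and being lowest in replicate 3 is thus not particular to Kcnj8 and Pdgfrb. The part of vessel wall cells in the Kcnj8 signal was not tested.

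B2m was lowest in replicate 3 and highest in replicate 1 of both genotypes, with 1400, 898 and 620 in the wild type and 1940, 1190 and 571 in heterozygotes.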
